A study of Mus musculus with 6 samples.

Results

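The motile cilia genes described here are 43 genes, of 18193 with a probe set that the array annotation ties to 1 gene. They comprise the transcription factors Foxj1, Rfx2 and Rfx3, the genes whose symbols begin with Dnah, Dnai, Dnal, Dnaaf, Tekt or Rsph, and Spag6, Spag16, Spag17, Spef1, Spef2, Hydin, Tppp3, Mns1 and Dynlrb2. They were chosen by name, with 1 probe set per gene, the one with the highest mean over all arrays. RNA came from olfactory epithelium of mouse pups aged 1 day, of a mixed C57Black6/J and 129SvJ background, with 3 arrays from mutant pups and 3 from wild-type pups, 1 pup per array. KLF7, a zinc finger transcription factor of neurons, is named in the series title as the factor whose targets were sought; the labels call the first group only mutant and do not describe the allele.

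Motile cilia beat in a coordinated stroke and carry mucus across the respiratory epithelium, which borders the olfactory epithelium in the nasal cavity. Dynein arms along the outer microtubule doublets make the doublets slide, and the radial spokes and the central pair of microtubules set the waveform. FOXJ1 and factors of the RFX family switch these genes on in multiciliated cells; the cilia of olfactory sensory neurons in mammals serve odour detection and lack the dynein arms needed for beating.

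RFX proteins bind a DNA element called the X-box, built from half-sites of the type GTTGCC. Promoters of 250 bases before to 50 bases after the annotated start (RefSeq, GRCm38.p6) were given for 38 of the 43 genes; Dnaaf1, Foxj1, Rsph1, Rsph4a and Tppp3 had no entry. The letters GTTGCC, searched on both strands, stood in the promoter of 17 of the 38 genes (44.7%), against 14.1% of all 27025 genes with an entry. Counted over single promoters, the share was 42.9% of 42 promoters, against 12.5% of all 32851. TGTTTAC, a site of forkhead factors such as FOXJ1, was in 2 of the 38 genes (5.26%), against 4.05% of all genes. A longer X-box form, which extends this half-site, was in 0 of the 38 genes, against 0.633% of all genes, and in 4 of 73 other motile cilia genes (5.48%). Among those 73 genes, taken from a further list, GTTGCC was in 34 (46.6%), while it was in 2 of 9 genes of respiratory secretory cells and in 1 of 11 genes of squamous epithelium. A match is a description of letters in this window and does not show that a factor binds there.

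Of the genes bright enough to be tested, 13 had GTTGCC in the window, and in 9 of them it lay wholly before the start. These 9 follow, each with up to 20 flanking bases, since GTTGCC was, of the 3 motifs searched, the one whose share in these genes differed most from that of all genes. Capitals mark GTTGCC or its reverse complement, all are written along the gene's own strand, and positions are on GRCm38.p6.
Dynlrb2, chr8:116504944-116504989, plus strand: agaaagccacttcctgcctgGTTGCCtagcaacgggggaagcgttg
Spag16, chr1:69826847-69826892, plus strand: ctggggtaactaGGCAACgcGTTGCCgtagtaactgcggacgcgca
Tekt1, chr11:72361883-72361917, minus strand: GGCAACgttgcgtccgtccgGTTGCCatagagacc
Tekt2, chr4:126325689-126325730, minus strand: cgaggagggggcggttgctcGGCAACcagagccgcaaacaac
Mns1, chr9:72438437-72438482, plus strand: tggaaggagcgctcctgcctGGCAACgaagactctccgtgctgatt
Hydin, chr8:110266944-110266976, plus strand: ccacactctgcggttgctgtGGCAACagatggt
Rfx2, chr17:56831099-56831144, minus strand: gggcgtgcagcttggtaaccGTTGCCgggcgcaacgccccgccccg
Dnaaf2, chr12:69198430-69198458, minus strand: ctcctcccaggcgttactatGGCAACaaa
Dnah7a, chr1:53706959-53707004, minus strand: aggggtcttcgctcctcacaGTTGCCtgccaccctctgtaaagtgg
Spag16 and Tekt1 held 2 copies in opposite directions within the stretch shown. The match in Dynlrb2 began 51 bases before the start, that in Mns1 72 bases and that in Rfx2 116 bases before it.

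Values are log2 of quantile-normalized intensity, and each probe set is compared only with itself across arrays, since different probe sets do not share a scale. Intensities were raised to a floor of 3.65 on this log2 scale, and genes with a mean below 5.19 over the 6 arrays were left out of testing as dim. Array medians of the deposited intensities ran from 38.79 to 61.59 on mutant arrays and from 38.21 to 52.81 on wild-type arrays. The first principal component, with 50.2% of the variance, set both arrays numbered 3 apart, mutant array 3 at 49.5 and wild-type array 3 at 98.2, from the other 4 at -42.4 to -32.3. All 4 Klf7 probe sets were lower in mutant, without overlap and by 4.44- to 8.32-fold; the one with the largest difference lay at 6.85, 5.70 and 5.26 on mutant arrays 1, 2 and 3, against 9.36, 8.58 and 9.04 on the wild-type arrays. The position of these probe sets relative to the mutated sequence is not known here. Whether the pups shared litters is not stated, and the number of arrays limits the precision of every difference below.

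Most motile cilia genes passed the brightness limit for testing. The limit uses the mean over all 6 arrays and is not a detection call for either genotype. Of the 43 genes, 34 (79.1%) were bright enough to be tested, against 69.8% of all genes with a probe set. Foxj1, Rfx2, Rfx3, all 6 radial spoke genes, all 6 inner arm dynein genes, and Dynlrb2, Tppp3 and Mns1 were among them. Of a further list of 108 motile cilia genes outside the rule, 88 had a probe set and 75 of those (85.2%) were bright enough. That list holds genes of multiciliated cell formation such as Ccno, Myb and Foxn4, dynein docking factors such as Ccdc39 and Drc1, cilia and flagella associated proteins (Cfap genes), and axonemal genes such as Ak7 and Ccdc153. Among the genes of multiciliated cell formation Myb, a transcription factor also active in other dividing cells, lay at 11.52, 11.76 and 11.29 on mutant arrays, against 11.41, 11.37 and 10.51 on wild-type arrays.

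Another tissue with motile cilia is the lining of the brain ventricles. Of 12 choroid plexus and ependyma markers, 11 had a probe set and 7 of those were bright enough to be tested (69.8% of all genes were). Of the dim ones, Kl and Folr1 were highest on wild-type array 3, Tmem72 on mutant array 2 and Slc4a5 on wild-type array 2. Ttr, an abundant choroid plexus transcript, lay at 5.79, 5.98 and 6.42 on mutant arrays, against 5.38, 5.20 and 7.06 on wild-type arrays. Among those tested, Ttr and Sostdc1 were highest on wild-type array 3, and Kcnj13 and Rarres2 were lowest there. Clic6, Calml4 and Otx2 of the same list were bright on all 6 arrays. Of 14 genes of airway secretory cells, 13 were bright enough to be tested. Bpifa1, an abundant secreted protein of upper airway epithelium, lay at 12.99, 13.09 and 13.16 on mutant arrays, against 13.04, 13.09 and 12.96 on wild-type arrays, while Scgb1a1, the club cell secretoglobin, was at the floor on 4 of 6 arrays.

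No motile cilia gene differed between mutant and wild-type arrays past the threshold. By limma, with p-values adjusted by Benjamini-Hochberg across the 12703 genes tested, 0 of the 34 were called (background 0%), and the adjusted p was 1 for each. At an unadjusted p under 0.05 there were 0 of the 34 (background 0.598%), and the groups overlapped for all 34 (background of no overlap 2.86% in either direction). The smallest unadjusted p among them was 0.132. In the fit blocked on replicate number, 0 of the 34 were called. In it 1 of the 34 had an unadjusted p under 0.05, against 157 of all 12703 genes tested. This was the central pair gene Spef2 (limma, 0.0427, adjusted p = 1), whose probe sets differed in sign.

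The log2 differences, mutant minus wild type, had a median of 0.15 over the 34 genes, with 21 higher and 13 lower. Over all genes tested the median was -0.02, and 47.4% were higher. Lists of other cells, described below, had medians of 0.17 (airway secretory cells, 13 of 13 higher), 0.18 (horizontal basal cells, 8 of 9) and 0.22 (sustentacular and Bowman gland genes, 8 of 10). The medians were -0.12 for squamous epithelium (3 of 11 higher) and -0.86 for mature olfactory sensory neurons (1 of 11). Without both arrays numbered 3 the median of the 34 was -0.10, with 15 of 34 higher, against -0.05 over all genes tested. Leaving out single arrays moved the median of the 34 between 0.01 (without mutant array 3) and 0.36 (without mutant array 2). It was 0.03 without wild-type array 1, 0.07 without mutant array 1 and 0.09 without wild-type array 3. Over all genes tested the median then ran from -0.07 (without wild-type array 3) to 0.06 (without mutant array 2). The 95% confidence interval of the difference stayed within 2-fold in both directions for 7 of the 34 genes; for the other 27 a 2-fold difference in at least one direction lay inside the interval.

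**Figure D1:**
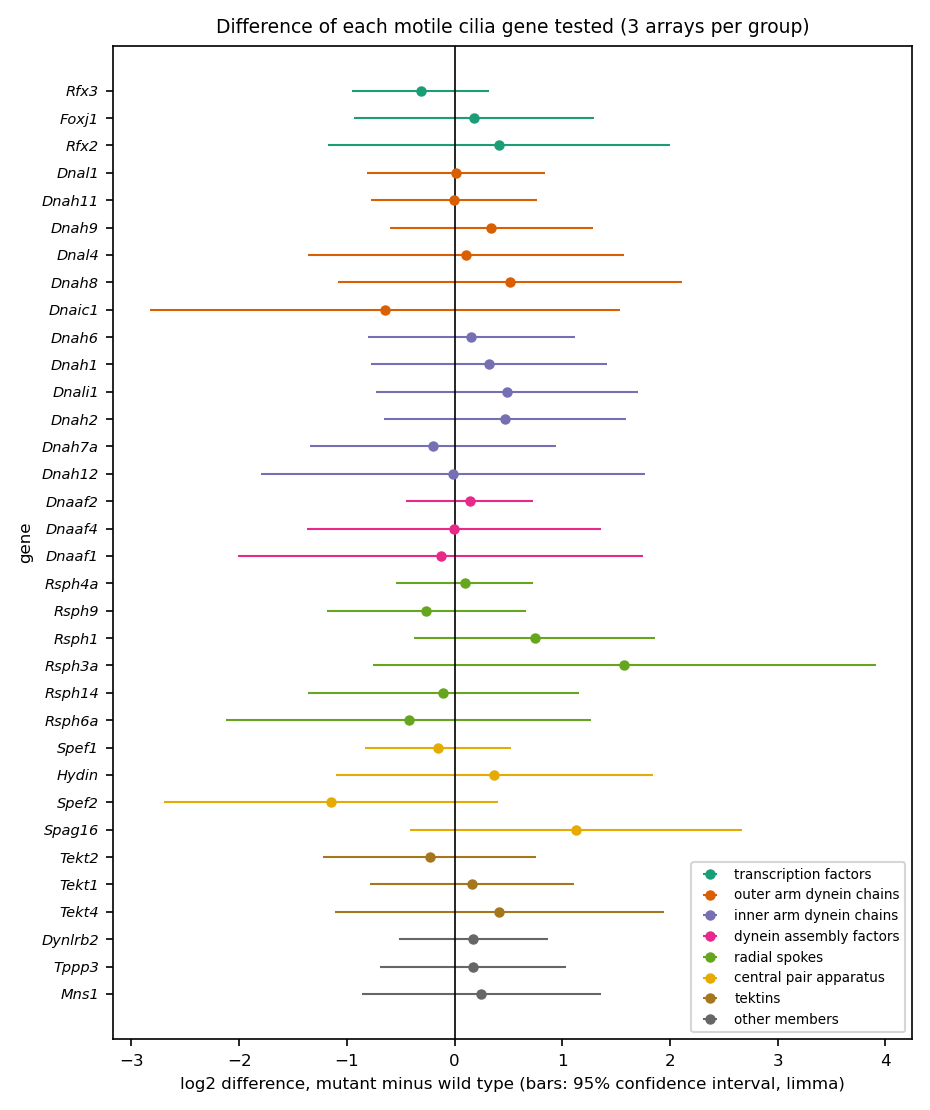
Log2 difference, mutant minus wild type, on the horizontal axis for each of the 34 motile cilia genes tested, listed down the page and coloured by role; points are differences of means (3 arrays per group) and bars are 95% confidence intervals from limma. Every bar crosses 0, and the widest, for Rsph3a, runs from -0.76 to 3.91.

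Among the transcription factors, Foxj1, which drives the motile cilia programme, lay at 7.72, 7.01 and 6.92 on mutant arrays 1, 2 and 3, against 6.95, 7.41 and 6.76 on wild-type arrays 1, 2 and 3. The groups overlapped, with the highest value on mutant array 1 and the lowest on wild-type array 3. The means were 7.22 ± 0.44 in mutant and 7.04 ± 0.34 in wild type (SD, n = 3 each), a log2 difference of 0.18 with a 95% interval from -0.93 to 1.30 (limma, adjusted p = 1; exact two-sided permutation p = 0.6, where 3 arrays against 3 cannot go below 0.1). Rfx3, an RFX factor of ciliated cells and of several other tissues, lay at 10.54, 11.09 and 10.21 on mutant arrays, against 11.33, 10.47 and 10.99 on wild-type arrays. Its order within a pair of equal number turned over between pair 2 and the other two, and the difference was -0.31 with an interval from -0.95 to 0.32. A second Rfx3 probe set gave 0.03. Rfx2, a close relative with a role in spermatogenesis and ciliogenesis, was 5.66, 5.50 and 5.66 on mutant arrays, against 5.87, 4.76 and 4.95 on wild-type arrays, near the limit for testing, with a difference of 0.41 (interval -1.17 to 2.0).

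**Figure D2:**
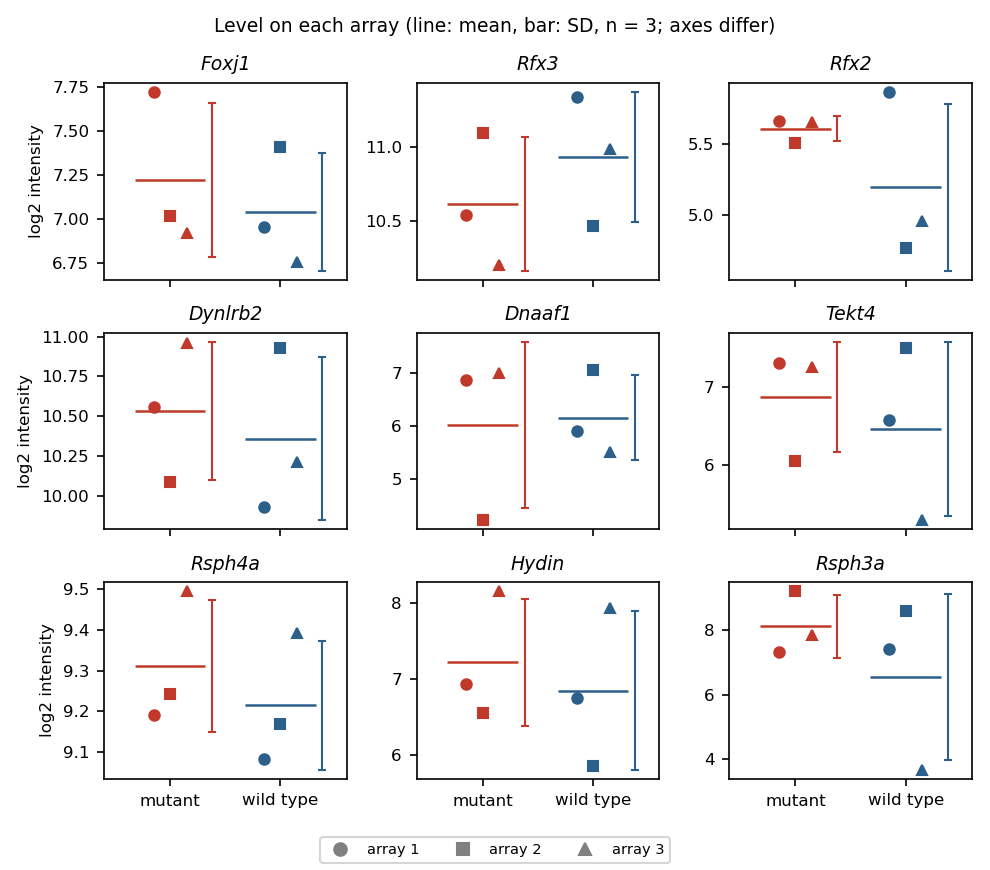
Log2 intensity on the vertical axis for 9 motile cilia genes on each array, mutant left and wild type right; symbols give the array number, lines the group means and bars the SD (n = 3 each), and the axes differ between genes. Mutant and wild-type points overlap in every panel. For Dnaaf1, Tekt4 and Dynlrb2 mutant arrays 1 and 3 and wild-type array 2 are the 3 highest. Dnaaf1 and Tekt4 are not the brightest of their roles, and other panels show other orders, such as Rfx3, lowest on mutant array 3.

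Outer arm dynein genes were measured for 9 members, of which 6 were tested. Dnal1, a light chain, lay at 9.23, 9.78 and 8.44 on mutant arrays, against 9.13, 9.30 and 8.98 on wild-type arrays. Both the highest and the lowest value were from mutant pups, and the difference was 0.01 (interval -0.81 to 0.84). The heavy chains Dnah11 and Dnah9 differed by -0.003 and 0.34. Dnah8, a heavy chain best known from sperm, differed by 0.51, and Dnal4, a light chain, by 0.11. Dnaic1, the older symbol of the intermediate chain gene Dnai1, ranged widely, at 6.13, 4.63 and 4.01 on mutant arrays, against 6.26, 6.76 and 3.69 on wild-type arrays, and was lowest on both arrays numbered 3. Dnah5, Dnah17 and Dnaic2 were too dim to be tested; Dnaic2 reached 6.16 on mutant array 3 and 6.13 on wild-type array 3 and lay at 4.44 or lower elsewhere.

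All 6 inner arm dynein genes were tested, with differences from -0.20 to 0.49. Dnah6, a heavy chain, lay at 8.47, 8.14 and 9.15 on mutant arrays, against 7.77, 8.54 and 8.97 on wild-type arrays. Both arrays numbered 3 were above the other 4, and the difference between genotypes was 0.16 (interval -0.80 to 1.12). Dnali1, an inner arm light intermediate chain, had the highest difference of the 6, 0.49, and was highest on mutant array 3 and lowest on wild-type array 3. Dnah1 and Dnah2 differed by 0.32 and 0.47, Dnah12 by -0.01. Dnah7a differed by -0.20; its near-identical copies Dnah7b and Dnah7c could contribute to its signal.

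The dynein assembly factors load the arms in the cytoplasm before transport into the cilium. Dnaaf2, known also as kintoun, lay at 9.83, 9.82 and 10.21 on mutant arrays, against 9.59, 9.75 and 10.09 on wild-type arrays. The mutant array was the higher in each pair of equal number, by 0.24, 0.07 and 0.12, beside an SD of 0.23 in mutant and 0.26 in wild type. Dnaaf1, a leucine-rich repeat factor, spread far more, at 6.87, 4.22 and 7.0 on mutant arrays, against 5.90, 7.06 and 5.52 on wild-type arrays. It was low on mutant array 2 and high on mutant array 3 and wild-type array 2, with a difference between genotypes of -0.13. Dnaaf4 was likewise lowest on mutant array 2, at 5.68, was highest on mutant array 1, at 7.11, and differed by -0.01. Dnaaf5 and Dnaaf6 were too dim to be tested.

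All 6 radial spoke genes were tested. Rsph4a, a spoke head protein of respiratory cilia, was the steadiest of the 34 genes across pups, at 9.19, 9.24 and 9.49 on mutant arrays, against 9.08, 9.17 and 9.39 on wild-type arrays. Each mutant value exceeded the wild-type value of the same number, by 0.11, 0.07 and 0.10, yet the groups overlapped and the difference of 0.10 was smaller than the SD of 0.16 in each group. Rsph1, another spoke head protein, had a difference of 0.74 that rested on wild-type array 3, at 6.77 against 8.42 or more on the other 5 arrays. Rsph9 and Rsph14 differed by -0.26 and -0.10, and Rsph6a, a spoke gene of sperm, by -0.42.

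Rsph3a, a spoke stalk protein, varied most of the 34 genes over the 6 pups, at 7.32, 9.22 and 7.85 on mutant arrays, against 7.41, 8.60 and 3.65 on wild-type arrays, the last at the floor. Its second probe set gave the same 2 highest arrays, 8.55 on mutant array 2 and 7.70 on wild-type array 2, and its lowest value, 3.84, also on wild-type array 3. The difference of 1.58 had an interval from -0.76 to 3.91; it was 0.13 without wild-type array 3 and 2.60 without wild-type array 2. Rsph3b, a near-identical copy, could contribute to this signal.

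Of the central pair genes, Spef1, a microtubule-bundling protein of the central pair, lay at 9.17, 9.18 and 9.49 on mutant arrays, against 9.45, 9.78 and 9.07 on wild-type arrays, a difference of -0.15 (interval -0.83 to 0.52). Hydin, a large central pair protein, lay at 6.94, 6.55 and 8.15 on mutant arrays, against 6.75, 5.85 and 7.93 on wild-type arrays. The mutant array was higher in each pair, by 0.19, 0.70 and 0.22, while both arrays numbered 3 stood above the other 4. Spef2 had the most negative difference of the 34, -1.14 (interval -2.70 to 0.41), with 5.8, 6.09 and 7.19 on mutant arrays, against 7.49, 6.26 and 8.76 on wild-type arrays. Of 2 further Spef2 probe sets bright enough for testing, 1 differed by -0.77 and 1 by 1.19, so the direction depends on the probe set. The same held for Spag16, at 1.13 on the brightest probe set and -0.49 on the next. Spag6 was at the floor on 5 of 6 arrays, and Spag17 was also too dim; Spag6l, the related gene expressed in ciliated tissue, was in the further list and lay at 8.59, 8.34 and 8.70 on mutant arrays, against 8.07, 9.0 and 8.64 on wild-type arrays.

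The tektins are filament proteins inside the outer doublets. Tekt2 lay at 8.10, 7.19 and 8.42 on mutant arrays, against 7.84, 8.39 and 8.16 on wild-type arrays, with the lowest value on mutant array 2 and a difference of -0.23 (interval -1.22 to 0.76). Tekt1 and Tekt4 differed by 0.17 and 0.41, and Tekt3 and Tekt5 were too dim to be tested. Of the remaining genes, Dynlrb2, a dynein light chain enriched in ciliated cells, lay at 10.56, 10.09 and 10.96 on mutant arrays, against 9.93, 10.93 and 10.22 on wild-type arrays, a difference of 0.17 (interval -0.52 to 0.86). Tppp3, a tubulin-binding protein used as a marker of ciliated airway cells, differed by 0.17 and Mns1, a filament protein of the cilium, by 0.25. The 13 genes tested that had GTTGCC in the promoter had a median difference of 0.17 with 8 higher, and the 16 tested without it 0.06 with 9 higher.

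Where several probe sets of a gene were bright enough, 6 of 9 genes had differences of one sign and Rfx3, Spag16 and Spef2 had both signs.

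Many of the motile cilia genes moved together from array to array, within both genotypes. The median deviation from each gene's own mean was 0.10, -0.25 and 0.30 on mutant arrays 1, 2 and 3, against -0.17, 0.32 and -0.26 on wild-type arrays 1, 2 and 3. Over all genes tested it lay between -0.10 and 0.11 on mutant arrays and between -0.07 and 0.08 on wild-type arrays. On mutant array 3, 27 of the 34 genes were above their own mean (against 6610 of all 12703 genes tested). On mutant array 2 only 10 were (against 5339). On wild-type array 2, 22 of the 34 were above their mean (against 7270 of all 12703). On wild-type arrays 1 and 3 it was 12 and 13 (against 7160 and 5848). Mutant array 3 was the highest array for 12 of the 34 (35.3%, against 15.4% of all genes tested) and wild-type array 2 for 9 (26.5%, against 16.5%), or 6 with array medians set equal. Wild-type array 3 was the lowest for 11 (32.4%, against 28.1%), or 17 with array medians set equal. Mutant array 2 and wild-type array 1 were the lowest for 8 each (23.5%, against 25% and 10.4%). The shares of all genes are from quantile normalization only, and none is given for the counts of 6 and 17.

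**Figure D3:**
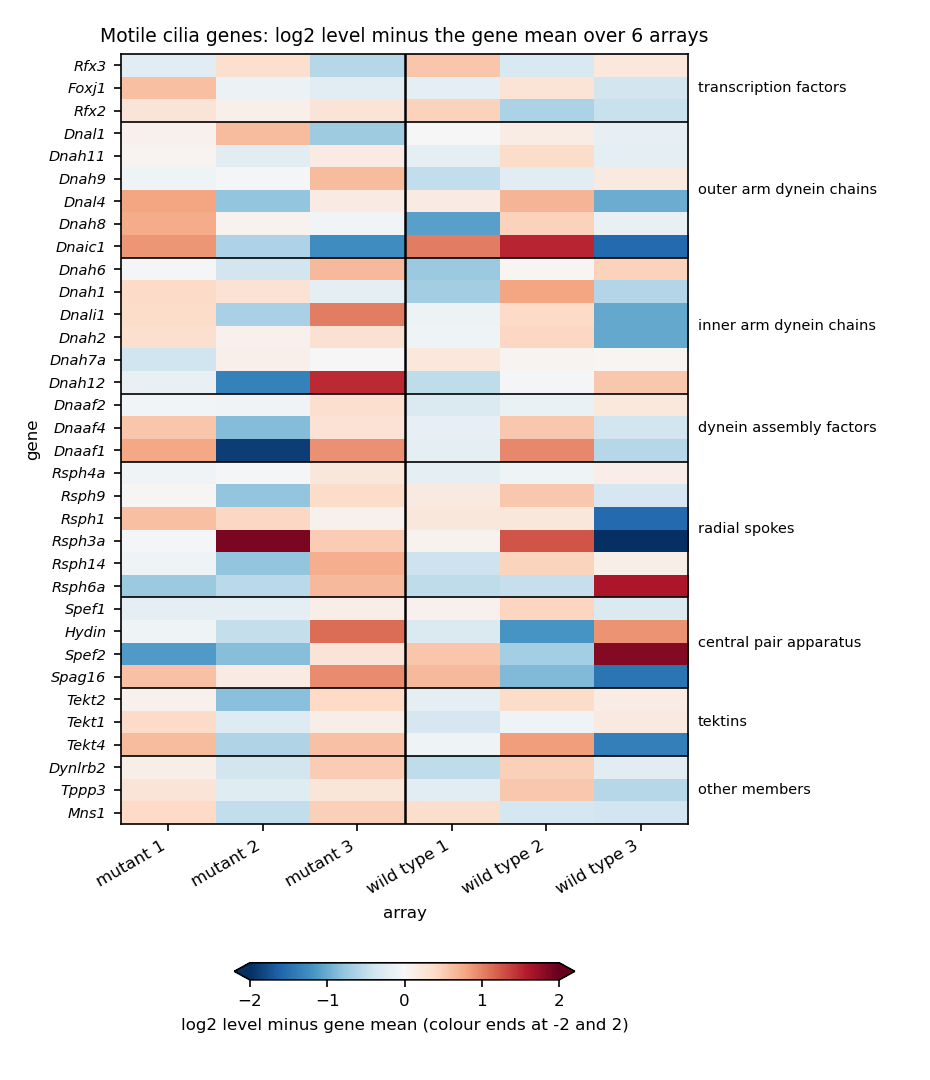
Log2 level minus the gene's mean over the 6 arrays, as colour, for the 34 motile cilia genes tested (rows, grouped by role) on each array (columns, mutant left of the line and wild type right). Red prevails on mutant array 3 and wild-type array 2, and blue on mutant array 2; Rfx3 is lowest on mutant array 3 and above its mean on mutant array 2.

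The sign of the difference turned between pairs of equal number. The deviations of same-numbered arrays from their group means correlated at 0.47, 0.18 and 0.56 across genes, each above the 0.1 at which the numbers were taken as pairs. Mutant array 1 also correlated with wild-type array 2, at 0.22, above the 0.18 of pair 2, and mutant array 2 with wild-type array 1, at 0.09. Within a group the deviations of a gene cancel out, and both arrays numbered 3 stood apart. The arrays numbered 1 and 2 therefore tend to correlate whichever way they are matched. These correlations cannot show that pairs 1 and 2 are true pairs, and the pairs below are matched by number only. Within pairs 1, 2 and 3 the median difference of the 34 genes was 0.29, -0.39 and 0.43, with 24, 11 and 28 of them higher in the mutant array. Over all genes tested these medians were 0.03, -0.15 and 0.01. Of the 34 genes, 5 were higher in the mutant array in all 3 pairs (14.7%, against 6.31% of all genes tested), namely Dnaaf2, Dnah9, Hydin, Rsph1 and Rsph4a, and 2 were lower in all 3 (5.88%, against 9.46%), Rsph6a and Spef2.

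The arrays numbered 3 also differed from the others in these genes, in both directions. Both lay above the other 4 for 7 of the 34 genes (20.6%, against 18.9% of all genes tested), namely Dnaaf2, Dnah6, Dnah9, Dnah12, Hydin, Rsph4a and Rsph6a. Both lay below the other 4 for Foxj1, Dnaic1, Dnal1 and Rsph1 (11.8%, against 19.1%). The share above is close to that of all genes.

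The further 75 motile cilia genes had median deviations of 0.08, -0.17 and 0.32 on mutant arrays 1, 2 and 3, against -0.16, 0.17 and -0.12 on wild-type arrays, with the signs of the 34. Wild-type array 3 was the highest array for 16% of the 75, against 5.88% of the 34 and 23.1% of all genes tested. It was the lowest array for 38.7% of the 75, against 32.4% of the 34 and 28.1% of all genes tested. Of the 75, 0 were called by limma (background 0%) and 0 had an unadjusted p under 0.05 (background 0.598%). Their median difference was 0.13, with 54 higher and 21 lower. Without both arrays numbered 3 it was 0.02, with 38 of 75 higher, against a median of -0.05 over all genes tested. Within pairs 1, 2 and 3 the medians were 0.28, -0.35 and 0.38. The groups did not overlap for 1 gene, higher in mutant (background 0.905%), Cdhr3, a cadherin of ciliated airway cells. It lay at 8.62, 8.56 and 9.60 on mutant arrays, against 8.20, 8.39 and 7.50 on wild-type arrays, a difference of 0.90 (limma, adjusted p = 1). Ak7, an adenylate kinase of motile cilia, lay at 10.95, 11.08 and 11.16 on mutant arrays, against 10.80, 10.96 and 11.11 on wild-type arrays. Ccdc39, a ruler protein that spaces the dynein arms, had 9.93, 10.57 and 11.15 on mutant arrays, against 9.97, 9.86 and 10.91 on wild-type arrays.

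Markers of other cells moved over the same arrays, and the values stand here side by side. Squamous epithelium genes, 11 tested, deviated by a median of 0.97, -1.56 and 0.88 on mutant arrays 1, 2 and 3, against -1.05, 2.76 and -1.28 on wild-type arrays. They were thus high on mutant arrays 1 and 3 and wild-type array 2, the 3 arrays on which the median of the motile cilia genes was also above 0. On these 3 arrays 7, 8 and 10 of the 11 were above their own mean (against 7758, 6610 and 7270 of all 12703 genes tested). Krt13, a keratin of non-cornified squamous epithelium, was at the floor on mutant array 2 and wild-type array 1. Lce3c and Ivl, 2 of the 11, were instead lowest on mutant array 1, at 5.86 and 3.81. Horizontal basal cell genes, 9 tested, deviated by 0.72, -0.56 and 0.17 on mutant arrays, against -0.34, 0.76 and -0.78 on wild-type arrays, with the same signs. Genes of airway secretory cells, 13 tested, deviated by 0.27, 0.05 and 0.10 on mutant arrays, against 0.06, 0.22 and -0.70 on wild-type arrays, and wild-type array 3 was the lowest for 11 of the 13. In bulk RNA, fewer cells of a type and less RNA per cell cannot be told apart, and the part of these cells in the motile cilia values was not tested.

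The genes of mature olfactory sensory neurons took another course, with 10 of 11 lower in mutant. The 11 tested deviated by -0.43, -0.43 and -0.26 on mutant arrays, against 0.72, 0.11 and 0.43 on wild-type arrays, and the groups did not overlap for 6 of them, lower in mutant (background 1.95%). Of the 11, 0 were called over all genes by limma (background 0%) and 6 had an unadjusted p under 0.05 (background 0.598%). This list was chosen with earlier results of these data known, so these counts are a description and no independent test. Sustentacular and Bowman gland genes, 10 tested, deviated by -0.01, 0.40 and -0.02 on mutant arrays, against 0.18, -0.24 and -0.30 on wild-type arrays, with mutant array 2 the highest, where the motile cilia genes were low.

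**Figure D4:**
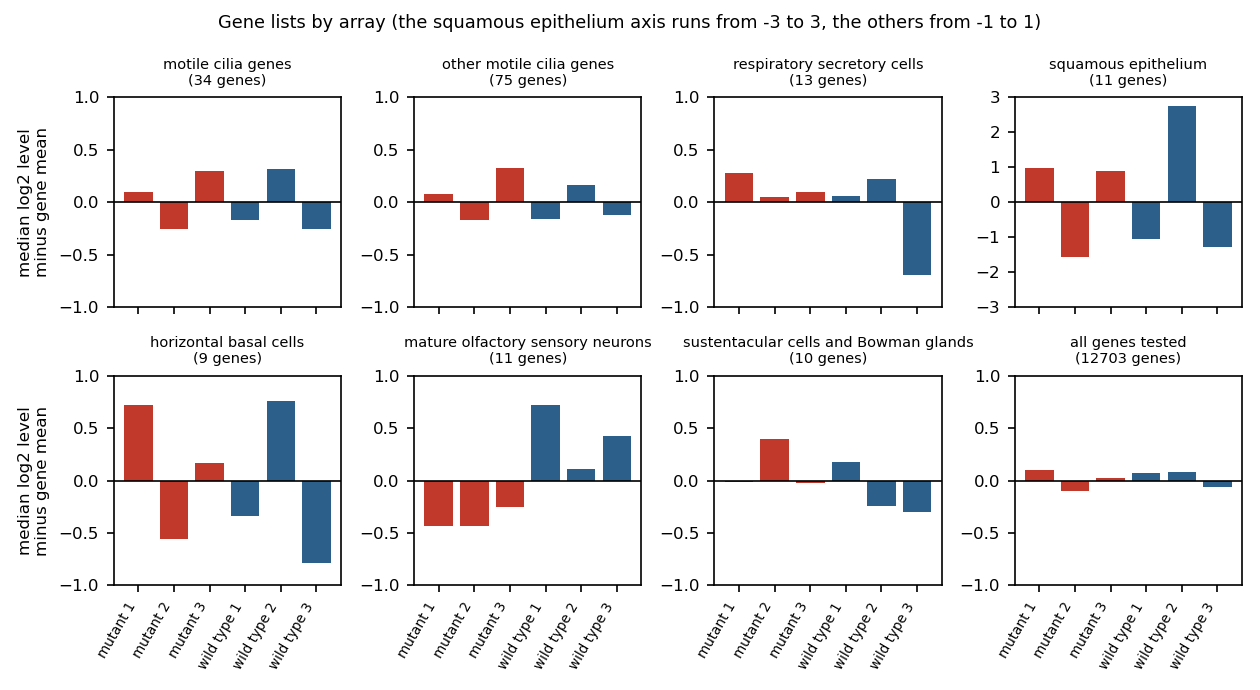
Median log2 level minus gene mean on the vertical axis for 8 gene lists on each array, mutant in red left of wild type in blue; bars start at 0 and the squamous epithelium axis is wider than the others. The 34 motile cilia genes and the 75 others are above 0 on mutant arrays 1 and 3 and wild-type array 2, as are squamous and horizontal basal cell genes, while olfactory neuron genes are below 0 on the 3 mutant arrays.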

How the data were processed

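The deposited table holds 1 linear intensity per probe set and array for 45037 probe sets; the steps by which the authors made them are not stated in the labels. Array quartiles differed by 0.54 to 0.69 (log2), so arrays were quantile normalized, floored at their 20th percentile (12.56) and taken to log2. Probe sets with 1 symbol in the platform annotation (34945) were kept, the brightest per gene, and 5490 genes in the lowest 40% were left out as dim. The genotype test was limma 3.58.1, run in R 4.3.3 (eBayes with an intensity trend, two-sided, threshold 0.05), checked on simulated data. Replicate numbers come from the labels. The correlations of same-numbered arrays were each above 0.1, the rule set for matching arrays by number. That rule cannot settle the pairing, as described above. The main genotype test, its intervals and the permutation test took no account of the numbers. A fit with the number as a block was an alternative. Genes given on every array are the transcription factors, the brightest of each role, those with the widest and narrowest range, and some chosen after their values were seen (Dnaaf1, Dnaic1, Hydin, Spef2, Cdhr3, Spag6l, Ttr). Members and lists were chosen with earlier results of these data known. Promoter letters were searched with Python 3.11.15.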

Additional observations from a re-analysis of the deposited data

How the results depend on the processing

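No motile cilia gene was called under any alternative run, nor was any gene of the whole table. The count of all genes at an unadjusted p under 0.05, 76 in the main analysis, became 43 with array medians set equal, 191 without the filter on dim genes, 131 with array weights, 157 with the replicate number as a block, 123 without both arrays numbered 3, and 71 to 219 when 1 array was left out. That of the motile cilia genes, 0, became 1 with the replicate block and 0 to 2 when 1 array was left out (Spag16 without wild-type array 1, Rsph3a and Spef2 without wild-type array 2). With array medians set equal, the number lowest on wild-type array 3, 11, became 17. The number highest on wild-type array 2, 9, became 6. These counts were recomputed as alternatives chosen after seeing the data, and no share of all genes is given beside them. Dnal1 differed by -0.40 with the mean of its probe sets and Dynlrb2 by -0.11 without both arrays numbered 3. When 1 array was left out, the difference ran from -0.17 to 0.43 for Dnah6, from -0.30 to 0.37 for Dnal1, from -0.039 to 0.46 for Dynlrb2, from -0.071 to 0.37 for Foxj1, from -0.33 to 0.020 for Spef1 and from -0.49 to 0.13 for Tekt2. The cause was not tested. The replicate block changed no call. Genes near the floor have understated differences.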
